A study of Mus musculus with 10 samples.

Results

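The genes described here are 10 genes of bone marrow macrophages and erythroblastic islands: the complement C1q chains C1qa, C1qb and C1qc, the surface molecules Adgre1, Vcam1 and Siglec1, the scavenger receptors Mrc1 and Cd163, the secreted scavenger protein Cd5l and the transcription factor Spic. They were chosen by gene symbol and make up 10 of the 25178 genes in the count table. Messenger RNA was measured by bulk RNA sequencing of bone marrow from 5 female and 5 male C57/BL6 mice, an inbred laboratory strain, without any treatment. Marrow came from a single hindlimb of each mouse, and cells with markers of mature blood lineages were taken out with magnetic beads. The remaining cells are labelled as hematopoietic stem and progenitor cells, so macrophages were not the population aimed at. The labels give no age, and the sources used here do not name the antibodies used for depletion. The study asked how blood formation differs between the sexes at rest, and for these genes the libraries also show how their levels vary together from mouse to mouse.

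Macrophages of the marrow sit at the centre of erythroblastic islands, where red cell precursors attach to them, mature and shed their nuclei. The macrophage holds the erythroblasts through adhesion molecules such as Vcam1, engulfs the expelled nuclei and old red cells, breaks down the heme and returns the iron. C1q, the recognition part of the classical complement pathway, and receptors such as Mrc1 and Cd163 help macrophages bind debris, glycoproteins and hemoglobin, and Spic is the transcription factor needed for the red-pulp type of iron-recycling macrophage.

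Total counts lay between 20754101 and 24759687 per library. The sex-linked genes fitted the label in 10 of 10 libraries. Male replicates 1 and 2 stood apart from the rest on the first principal component (scores 35.3 and 36.7, against at most 6.04 in the others). Male replicate 2 also had lower values for longer transcripts (Spearman correlation of deviation and exon length, across genes, -0.51, against -0.30 to 0.37 in the other 9 libraries). The progenitor gene Kit was plentiful, at 280 ± 43.3 CPM in the 5 females against 249 ± 59.4 in the 5 males (mean ± SD, as in all such pairs of values). CPM is the count scaled to a common library size. Several defining macrophage genes were close to 0. Folr2 had 4 counts over all 10 libraries, Marco, a scavenger receptor, 16, Clec4n 22, Vsig4, a complement receptor, 23, and Timd4, a receptor for dying cells, 54. The 10 genes described here together had between 453 counts (male replicate 5) and 2738 counts (male replicate 1) in a library. These are bulk samples, in which fewer macrophages and less RNA per macrophage cannot be told apart.

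C1qa, C1qb and C1qc encode the 3 chains that assemble into the C1q molecule. They lie next to each other on the minus strand of chromosome 4 (GRCm38) between 136880129 and 136898803, a stretch of 18.7 kb in which these 3 were the only genes measured. C1qb ends 3616 bp from C1qc, and C1qc 2851 bp from C1qa. RefSeq promoter windows, from 250 bases before to 50 bases after a gene's start, were at hand for 6 of the 10 genes (C1qb, C1qc, Cd5l, Mrc1, Cd163 and Spic). The stretches outside annotated exons are given for 2 C1q chains and for Cd5l, whose levels moved together, and for Cd163, whose correlation with them was low. They are from RefSeq on GRCm38.p6 and read 5′ to 3′ along the gene, with capitals on each GAGGAA or its reverse complement TTCCTC, the core of the site bound by the macrophage factor PU.1. They cover chr4:136886201-136886450 (minus strand) for C1qb, chr4:136893066-136893164 (minus strand) for C1qc, chr3:87357631-87357880 (plus strand) for Cd5l and chr6:124304401-124304650 (plus strand) for Cd163.
C1qb: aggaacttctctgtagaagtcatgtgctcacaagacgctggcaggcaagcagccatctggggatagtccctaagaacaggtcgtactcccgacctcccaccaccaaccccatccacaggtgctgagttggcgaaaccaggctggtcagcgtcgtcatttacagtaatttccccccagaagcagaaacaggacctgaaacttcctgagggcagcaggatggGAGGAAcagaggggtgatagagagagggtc
C1qc: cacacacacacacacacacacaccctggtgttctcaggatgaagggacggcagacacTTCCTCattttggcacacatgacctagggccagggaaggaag
Cd5l: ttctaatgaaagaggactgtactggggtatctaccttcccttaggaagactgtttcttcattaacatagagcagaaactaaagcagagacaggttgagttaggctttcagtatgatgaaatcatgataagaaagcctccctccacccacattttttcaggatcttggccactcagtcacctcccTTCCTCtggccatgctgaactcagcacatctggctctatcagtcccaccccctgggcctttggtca
Cd163: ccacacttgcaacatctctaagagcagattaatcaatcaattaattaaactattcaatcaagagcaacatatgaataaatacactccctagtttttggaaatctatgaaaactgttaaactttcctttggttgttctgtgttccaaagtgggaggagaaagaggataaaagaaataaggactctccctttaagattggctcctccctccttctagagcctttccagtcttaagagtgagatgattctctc
The 6-base core, on either strand, was present in the windows of 4 of the 6 genes (C1qb, C1qc, Cd5l and Mrc1) and in 28.3% of all 32851 windows of the same length. Its first base lay 30 bases before the start in C1qb, 193 in C1qc and 66 in Cd5l. In C1qc it is part of the longer GAGGAAGT (reverse complement ACTTCCTC), which 3.2% of all windows hold. Of the other motifs searched on both strands, TGCTGA was in 3 of the 6 windows (C1qb, Cd5l and Spic) and in 19.5% of all windows, and the E-box CACGTG in 0 of the 6 and in 7.15% of all. The windows of Cd163 and Spic held no GAGGAA on either strand, and the level of Spic did follow that of C1qa (r = 0.957). The motif set in capitals and the promoters shown were chosen after the matches had been seen. A match describes letters only.

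The 3 C1q chains were low but measurable in every library and rose and fell together from mouse to mouse. C1qa was at 1.84, 1.57, 2.01, 5.36 and 6.10 CPM in female replicates 1 to 5 and at 10.3, 4.15, 4.23, 2.21 and 1.27 CPM in male replicates 1 to 5. C1qb was at 1.07, 1.90, 1.62, 4.73 and 5.79 CPM in the females and at 8.47, 4.83, 2.35, 1.6 and 0.563 CPM in the males. C1qc was at 1.84, 1.44, 1.88, 6.07 and 4.62 CPM in the females and at 11.3, 3.74, 2.35, 2.17 and 0.516 CPM in the males. For each chain, male replicate 1 was highest, male replicate 5 was lowest and female replicates 4 and 5 stood above the other females, while the ranges of the sexes overlapped. The highest library held 8.15 times the lowest for C1qa, 15 times for C1qb and 21.9 times for C1qc, and the lowest values rest on 27, 12 and 11 counts. Per kb of annotated exon, C1qa averaged 3.76 ± 2.71 CPM, C1qb 3.03 ± 2.34 and C1qc 1.86 ± 1.64 (SD, n = 10). These SDs are the spread between mice. The order of the chains within a library was not tested.

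The ratio of the chains to one another varied less from mouse to mouse than that of C1qa to Cd163 or to Siglec1. The log2 ratio of C1qa to C1qb counts had an SD of 0.46 over the 10 libraries, where counting error alone gives 0.30, and that of C1qb to C1qc had an SD of 0.40 against 0.32. For C1qa and C1qc the SD was 0.46 against 0.29. Ratios of C1qa to Mrc1 (SD 0.40 against 0.27) and to Cd5l (0.42 against 0.32) varied as little. The log2 ratio of C1qa to Cd163 had an SD of 0.97 where counting gives 0.21, with the ratio running from 0.121 in male replicate 5 to 0.866 in male replicate 1. That of C1qa to Siglec1 varied more still (SD 1.2 against 0.45), and that of C1qa to Vcam1 had an SD of 0.50 against 0.21.

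Vcam1, the adhesion molecule that holds erythroblasts through the integrin of Itga4 and Itgb1, was at 7.62, 8.09, 9.96, 21 and 14.4 CPM in female replicates 1 to 5 and at 36.3, 7.48, 9.65, 8.74 and 3.75 CPM in male replicates 1 to 5. Male replicate 1 stood above all others, female replicates 4 and 5 came next and male replicate 5 was again lowest. Endothelial and stromal cells of the marrow also make Vcam1. Spic had 178 counts over all libraries. It was at 0.291, 0.495, 0.299, 1.25 and 1.09 CPM in the females and at 1.97, 0.727, 0.896, 0.401 and 0.235 CPM in the males, where the lowest value is 5 counts. The order of the libraries for Spic was like that for C1q, with male replicate 1 and female replicates 4 and 5 on top.

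Adgre1 encodes F4/80, the classical surface marker of mouse macrophages, which eosinophils and monocytes also carry. It was at 2.18, 2.19, 5.13, 4.64 and 5.04 CPM in female replicates 1 to 5 and at 14.8, 4.88, 4.01, 4.17 and 2.21 CPM in male replicates 1 to 5. Male replicate 1 stood far above the next library, and the other 9 lay between 2.18 and 5.13 CPM with overlapping sexes.

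Cd5l, a protein that macrophages secrete and that binds lipids and debris, had the highest coefficient of variation (SD divided by mean) of the 10 genes. It was at 0.776, 0.908, 1.71, 3.53 and 3.64 CPM in female replicates 1 to 5 and at 9.86, 1.51, 2.18, 1.04 and 0.704 CPM in male replicates 1 to 5. Mrc1, the mannose receptor (CD206), was at 1.6, 1.73, 2.73, 5.49 and 5.75 CPM in the females and at 7.72, 2.44, 2.65, 2.81 and 1.03 CPM in the males. Both genes were highest in male replicate 1, then in female replicates 5 and 4, and lowest in male replicate 5.

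Cd163, the receptor for hemoglobin bound to haptoglobin, varied least of the 10 genes. It was at 12.2, 9.91, 12.3, 14.4 and 14.3 CPM in female replicates 1 to 5 and at 11.9, 7.74, 10.03, 12.8 and 10.6 CPM in male replicates 1 to 5. Its highest library held only 1.86 times its lowest, male replicate 1 lay among the middle values and male replicate 2 was lowest. Siglec1 (CD169), a receptor for sialic acids on marrow and lymph node macrophages, was at 0.582, 0.826, 1.67, 1.92 and 2.58 CPM in the females and at 2.27, 0.156, 0.555, 1.04 and 0.375 CPM in the males. Female replicate 5 was highest for Siglec1 and male replicate 2 lowest, with 3 counts, and the sexes overlapped.

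**Figure D1:**
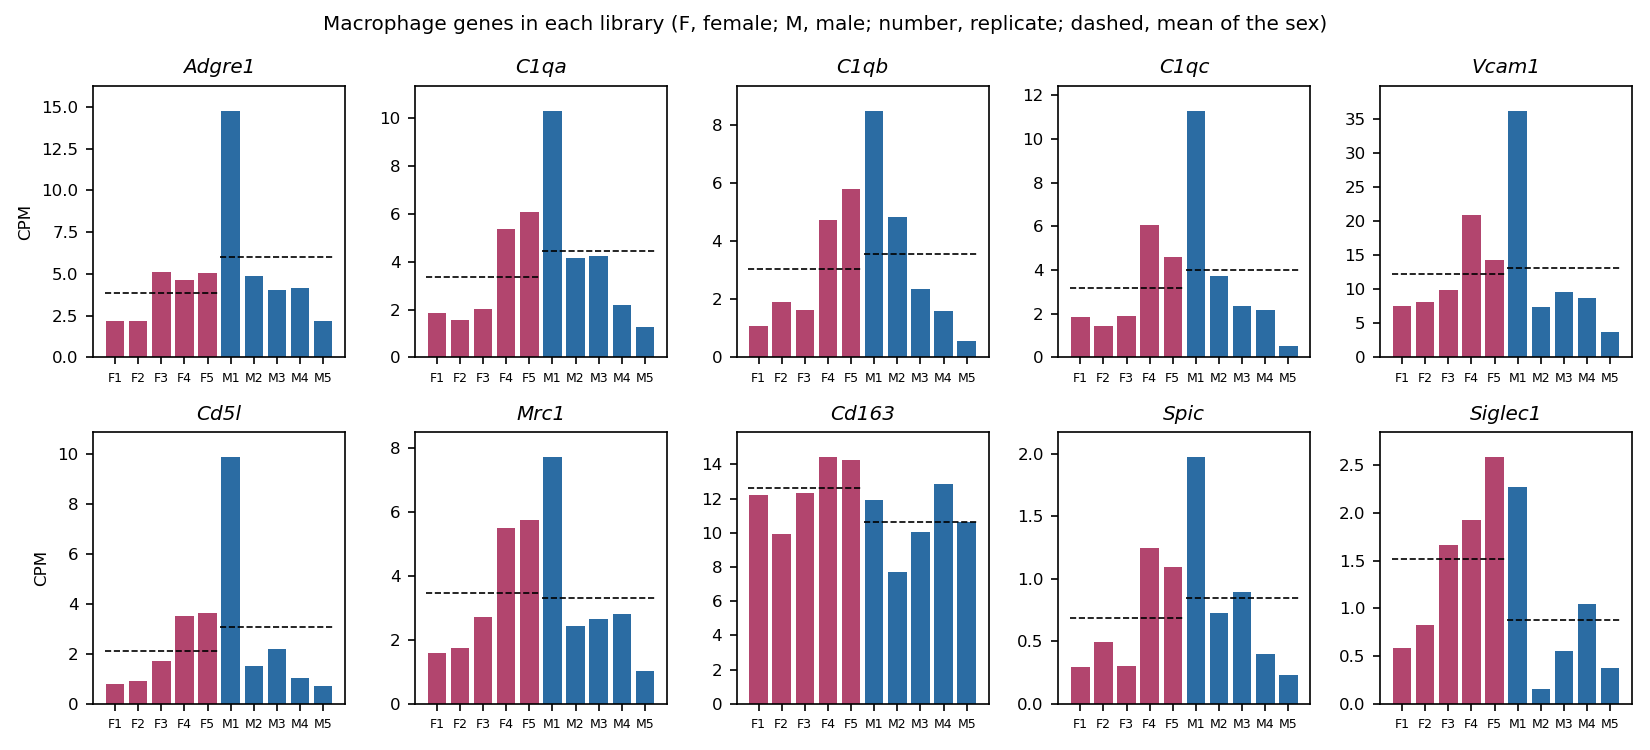
Level of each of the 10 genes in every library, in CPM on a linear axis that starts at 0 (F, female; M, male; number, replicate; dashed line, mean of the 5 mice of that sex). Male replicate 1 is highest for 8 genes and male replicate 5 lowest for 7, while Cd163 stays between 7.74 and 14.4 CPM.

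Over the 10 mice, 9 of the 10 genes varied more than most genes in the range of abundance that the 10 span. Their coefficient of variation (SD divided by mean) lay between 0.64 (Mrc1) and 1.07 (Cd5l), which placed them between the 93.5 and 98.2 percentile of the 5199 genes whose mean CPM lay in the same range. The median of those 5199 genes was 0.266. Cd163 had a coefficient of 0.179 and stood at the 21.7 percentile. The range ran from 0.766 to 12.7 CPM, and Cd163, at 11.6 CPM, lay near its upper end, where counting error is smaller. The edgeR fit also estimates the variation beyond counting error. By that estimate Cd163 was near the middle of all genes tested (0.180, median 0.189, 46.0 percentile). The other 9 genes stood between the 97.0 and 99.2 percentile. Male replicate 1 was the highest library for 8 of the 10 genes, and for 7 genes the highest 3 libraries were male replicate 1 and female replicates 4 and 5.

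No gene of the group passed the test for a difference between females and males. The counts of all genes were fitted with the quasi-likelihood test of edgeR, and a gene was called at a Benjamini-Hochberg adjusted p under 0.05. In that fit 0 of the 10 genes were called, 0 had an unadjusted p under 0.05, and DESeq2 also called 0. Over all 14674 genes tested, edgeR called 0.0545% (0.0204% higher and 0.0341% lower in females), and 9.17% had an unadjusted p under 0.05. The sexes overlapped for all 10 genes, while 1.93% of all genes had sexes that did not overlap. Adjusted p-values of the 10 genes lay between 0.51 (Cd163) and 0.962 (Mrc1). The median log2 fold change, female minus male, was -0.27 over the 10 genes and -0.01 over all genes tested.

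The largest fold changes were those of Siglec1 and Adgre1, in opposite directions. Siglec1 averaged 1.52 ± 0.817 CPM in the females against 0.879 ± 0.841 in the males, with a log2 fold change of 0.77 (SE 0.59, edgeR adjusted p = 0.545). Adgre1 averaged 3.84 ± 1.52 CPM in the females against 6.01 ± 5.00 in the males, with a log2 fold change of -0.65 (SE 0.46, edgeR adjusted p = 0.53). Cd163 had the smallest error, at 12.6 ± 1.84 CPM in the females against 10.6 ± 1.95 in the males (log2 fold change 0.25, SE 0.15). The fold changes of the C1q chains were -0.39 (SE 0.54) for C1qa, -0.23 (SE 0.63) for C1qb and -0.34 (SE 0.65) for C1qc. Those of Cd5l (-0.53, SE 0.69), Spic (-0.30, SE 0.57), Vcam1 (-0.11, SE 0.52) and Mrc1 (0.05, SE 0.50) were also smaller than their standard errors.

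The direction of most of these fold changes depended on single libraries. With all libraries, 7 of the 10 genes had a lower fitted level in females. Without male replicate 1, all 10 had a higher fitted level in females, with a median log2 fold change of 0.46, and again 0 were called. Mrc1 had a lower fitted level in females when any of 6 other libraries was left out, and Vcam1 turned to 0.02 and 0.00 without female replicates 1 and 2. Siglec1 and Cd163 kept their direction under all 16 alternatives. Without male replicate 1, Siglec1 had a log2 fold change of 1.47 and the lowest unadjusted p of the group (0.0205, edgeR adjusted p = 0.628). The male mean of Vcam1 went from 13.2 to 7.40 CPM and that of Cd5l from 3.06 to 1.36 CPM when that library was left out.

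**Figure D2:**
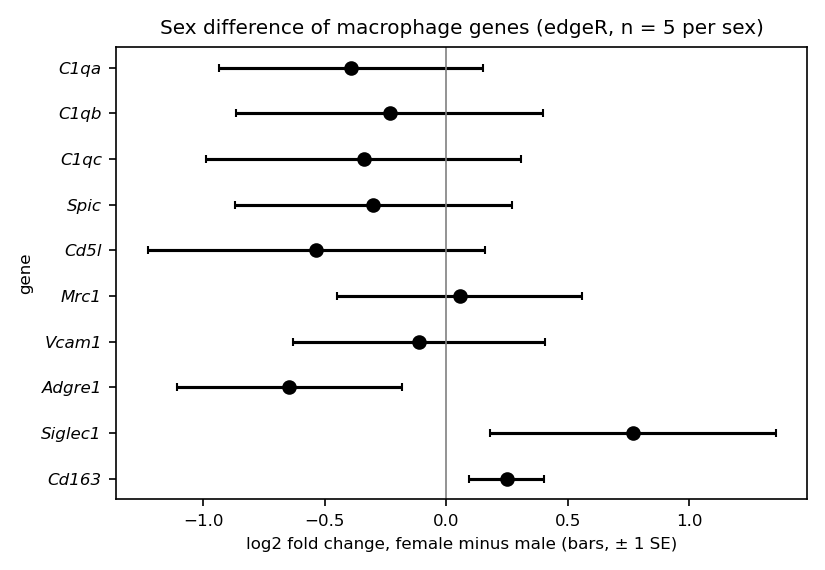
Log2 fold change, female minus male, of each of the 10 genes in the edgeR fit (points; bars, 1 SE either side; n = 5 per sex). The bars of 7 genes cross 0, and the 3 that do not, Adgre1, Siglec1 and Cd163, have adjusted p-values between 0.51 and 0.545.

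Most pairs of these genes rose and fell together over the 10 libraries. Pearson r of log2 CPM was at least 0.8 for 27 of the 45 pairs, against 5.48% of the 107655801 pairs of all genes tested. By a permutation test adjusted over the 45 pairs, 31 pairs had an adjusted p under 0.05 for Pearson r and 29 for Spearman rho. The median r was 0.849 and the median rho 0.770. Without the 2 libraries farthest from the median of the first gene of each pair, the median r was 0.740. With the mean of each sex removed it was 0.883, and without male replicates 1 and 2 it was 0.831. No correlation was computed within a sex, which has 5 libraries.

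The C1q chains followed each other closely. C1qa and C1qb had r = 0.935 and rho = 0.879 (permutation p = 0.00015 and 0.00141, adjusted over 45 pairs 0.000675 and 0.00485), and r = 0.888 without the 2 farthest libraries. For C1qa and C1qc r was 0.938 and rho 0.976 (permutation p = 3e-05 and 5e-05, adjusted 0.000506 and 0.00112), with r = 0.912 without the 2 farthest. For C1qb and C1qc r was 0.945 and rho 0.879 (permutation p = 7e-05 and 0.00151, adjusted 0.000506 and 0.00485), with r = 0.881 without them. In each of these 3 pairs the libraries left out were male replicates 1 and 5, the highest and the lowest.

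Spic, the transcription factor, followed C1qa at r = 0.957 and rho = 0.915 (permutation p = 0.00011 and 0.00058, adjusted 0.00055 and 0.00326), and at r = 0.912 without the 2 farthest libraries. Vcam1 and Mrc1 had r = 0.945 and rho = 0.915 (permutation p = 9e-05 and 0.00047, adjusted 0.000506 and 0.00326), and r = 0.897 without the 2 farthest. Cd5l and Mrc1, the secreted and the membrane-bound scavenger, had r = 0.938 and rho = 0.915 (permutation p = 3e-05 and 0.00049, adjusted 0.000506 and 0.00326), and r = 0.901 without them. Adgre1 had r between 0.758 (Spic) and 0.905 (Cd5l) with the 7 genes other than Cd163 and Siglec1, and its relation to Spic fell to 0.495 without male replicate 1 and female replicate 1.

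No pair of Cd163 or Siglec1 with a C1q chain passed. C1qa and Cd163 had r = 0.197 and rho = 0.358 (permutation p = 0.588 and 0.311, adjusted 0.63 and 0.341), and r = 0.145 without the 2 farthest libraries. C1qa and Siglec1 had r = 0.458 and rho = 0.612 (permutation p = 0.181 and 0.0663, adjusted 0.215 and 0.0932), and r = 0.17 without them. Of the 9 pairs of Cd163, 1 passed, that with Siglec1. Its r was 0.846 and its rho 0.745 (permutation p = 0.00228 and 0.018, adjusted 0.0041 and 0.0324), with r = 0.755 without male replicate 2 and female replicate 2. Siglec1 also passed with Vcam1 (r = 0.745, rho = 0.879, permutation p = 0.0123 and 0.00187, adjusted 0.0184 and 0.00561) and with Mrc1 (r = 0.746, rho = 0.842, permutation p = 0.0144 and 0.00382, adjusted 0.0208 and 0.0101). Without the 2 farthest libraries these r were 0.729 and 0.656. The relation of Siglec1 to Mrc1 no longer passed without male replicate 1 (permutation adjusted p = 0.0577) or female replicate 5 (0.0542). The 28 pairs among the other 8 genes all had an adjusted p under 0.05 for r. That set of 8, and the pairs named here, were picked after the correlations were seen, so the count is a description.

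Some of these correlations changed when transcript length was taken into account, whose trend was strongest in male replicate 2. In male replicate 2, genes of the length of C1qa (1.04 kb of exon) lay 0.53 above their mean on the log2 scale, while genes of the length of Siglec1 (7.14 kb) lay 0.33 below and those of the length of Cd163 (5.46 kb) 0.29 below. The count ratio of C1qa to Siglec1 was 23.0 in that library and between 1.20 and 7.37 in the other 9. Without male replicate 2, C1qa and Siglec1 had r = 0.721 (permutation adjusted p = 0.0425). With the median deviation of genes of like length subtracted in each library, they had r = 0.665 (permutation adjusted p = 0.0495). For C1qa and Cd163, r went from 0.197 to 0.437 without male replicate 2, to 0.522 with the length medians subtracted and to 0.576 without male replicates 1 and 2 (permutation adjusted p = 0.252, 0.137 and 0.146). This adjustment for length was added after the data were seen.

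**Figure D3:**
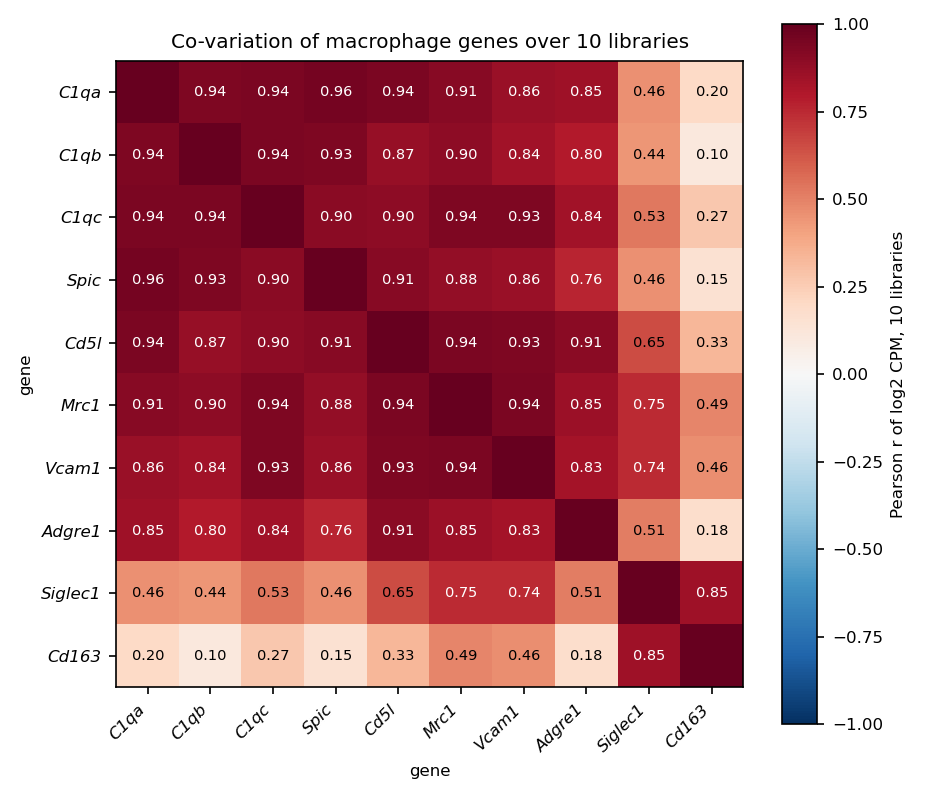
Pearson r of log2 CPM over the 10 libraries for every pair of the 10 genes (colour and printed value; the diagonal is each gene with itself). The C1q chains, Spic, Cd5l, Mrc1, Vcam1 and Adgre1 form a block from 0.76 to 0.96, and Siglec1 and Cd163 share 0.85 with each other.

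Among the 13081 genes with a mean of at least 1 CPM, the gene most like C1q over the 10 libraries was Hmox1, which encodes heme oxygenase 1, the enzyme that opens the heme ring and frees its iron. Likeness was Pearson r with the mean log2 CPM of C1qa, C1qb and C1qc over the 10 libraries. Hmox1 was at 4.17, 5.57, 5.21, 18.8 and 14.0 CPM in female replicates 1 to 5 and at 37.4, 13.5, 9.09, 6.53 and 2.77 CPM in male replicates 1 to 5. Its r was 0.986, and 0.982 without male replicate 1, above the values of C1qc (0.983), C1qb (0.981) and C1qa (0.975), which are part of that mean. As with C1q, male replicate 1 was highest and male replicate 5 lowest, and the sexes overlapped. Of all ranked genes, 1.55% had an r of at least 0.8 and 0.168% an r of at least 0.9.

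The next most alike genes outside the group were Fcna (r = 0.966), which encodes a ficolin, a lectin that starts complement activation, and Pparg (0.953), which encodes a nuclear receptor of lipid metabolism. After them came Slc37a2 (0.947), a sugar phosphate transporter, Osm (0.942), the cytokine oncostatin M, Skap2 (0.928), Smim3 (0.928), Cd300lg (0.919), Bet1l (0.918) and Cd84 (0.911), a receptor of the SLAM family. None of these was called between the sexes. On the same measure Mrc1 stood at rank 9, Cd5l at 12, Vcam1 at 27 and Adgre1 at 76, while Siglec1 stood at 2298 and Cd163 at 5252 (r = 0.194). Spic averaged 0.766 CPM and was not ranked.

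The other iron genes did not share this pattern as a group. Slc40a1, which encodes the iron exporter ferroportin, was at 118 ± 11.8 CPM in the females against 118 ± 16.7 in the males, with r = -0.154 to the C1q mean over all libraries and -0.667 without male replicate 1. Bach1, a repressor of Hmox1, had r = -0.17 and -0.312. Of the 15 genes of the iron recycling list, all passed the filter on low counts and 0 were called between the sexes in either direction. Apart from Hmox1, the ferroxidase gene Cp was the only one with r of at least 0.8 to C1q (0.87). The 3 of smallest p in the sex comparison, Ftl1 (536 ± 18.8 CPM in females, 720 ± 193 in males), Slc11a1 (1.31 ± 0.437 and 2.94 ± 3.36) and Fth1 (1728 ± 174 and 2038 ± 455), all had an edgeR adjusted p of 0.506.

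**Figure D4:**
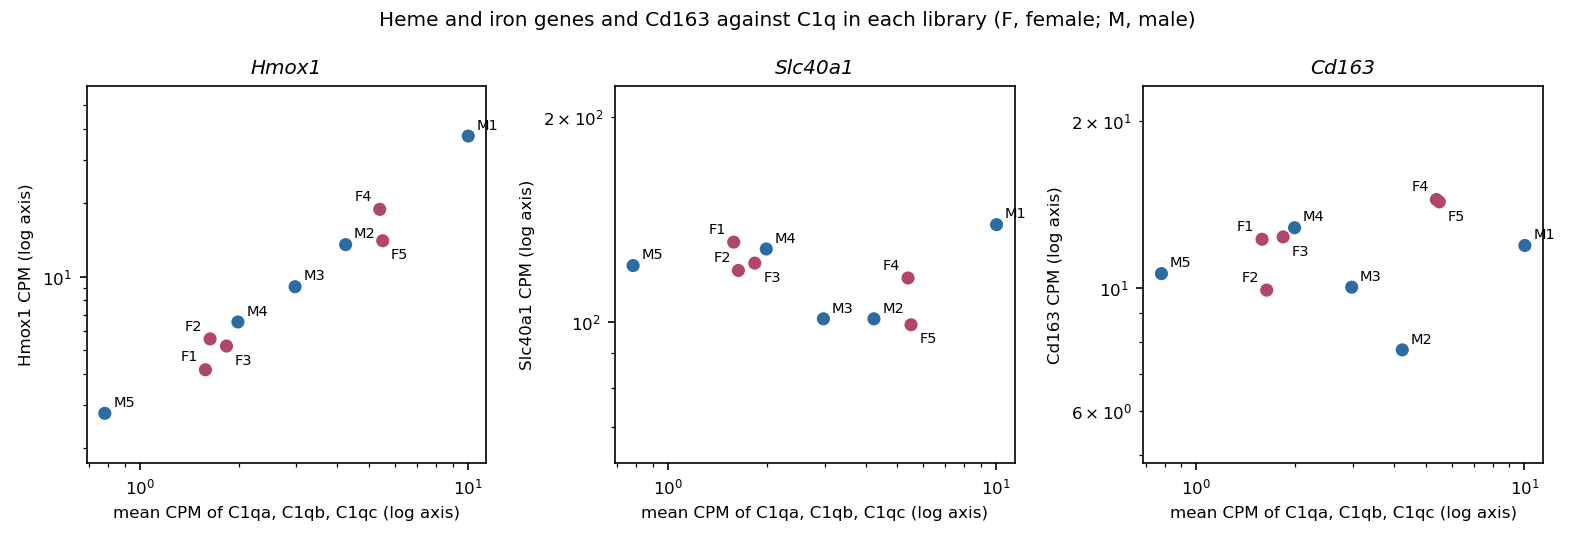
Level of Hmox1, Slc40a1 and Cd163 against the mean level of C1qa, C1qb and C1qc in each library, in CPM on log axes (F, female; M, male; number, replicate). Hmox1 follows C1q from male replicate 5 (2.77 CPM) to male replicate 1 (37.4 CPM), while Cd163 shows no such order. Slc40a1 had r = -0.154 with the C1q mean over all 10 libraries and -0.667 without male replicate 1, the highest library for both.

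Of the macrophage identity list, 11 of 20 genes passed the filter on low counts and 0 were called between the sexes. Mertk, a receptor for dying cells, did not pass (0.484 ± 0.381 CPM in females, 0.664 ± 0.627 in males). Csf1r, the receptor for the macrophage growth factor, had 46.9 ± 11.5 CPM in females against 50.5 ± 14.3 in males, with r = 0.508 to C1q and 0.24 without male replicate 1. The lysosomal marker Cd68 (6.71 ± 1.81 and 9.01 ± 3.77 CPM) had r = 0.821 (0.706 without that library), and Spi1 (56.1 ± 13.1 and 80.0 ± 27.2 CPM), which encodes the transcription factor PU.1, had 0.767 (0.619). Fcgr4, Spi1 and Trem2 had the smallest p of the list in the sex comparison (edgeR adjusted p = 0.506 each). The summed level of the 20 genes ran from 91.1 to 165 CPM in females and from 122 to 237 CPM in males, with the maximum in male replicate 1.

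In the complement list, 15 of the 17 genes found in the table were tested and 0 were called. Cfb was not analysed here, and Crry is another name of Cr1l, which is in the list and was tested. C1ra, a protease bound to C1q, had 2.98 ± 1.49 CPM in females against 2.59 ± 0.494 in males, and its partner C1s1 at 0.718 ± 0.377 and 0.346 ± 0.226. C3, the central complement component, was at 42.6 ± 10.4 and 68.3 ± 50.8 CPM. The complement receptor genes Itgam (3.75 ± 1.09 and 15 ± 16 CPM) and C5ar1 (1.66 ± 1.08 and 5.84 ± 6.90 CPM), both also made by neutrophils, had the smallest p with C1s1 (edgeR adjusted p = 0.506 each).

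No gene in the list of island partners, which is not limited to genes of erythroblasts, had an r of 0.8 or more with C1q. In that list 12 of 13 genes were tested and 0 were called, and their median r with C1q was -0.29. Sirpa had the highest r (0.732, and 0.534 without male replicate 1). Epor, the erythropoietin receptor, had the lowest (-0.84, and -0.741 without that library). Both r were singled out after they were seen. Icam4 was not analysed here. Itga4 and Itgb1, the integrin chains that bind Vcam1, had 232 ± 28.8 and 293 ± 11.6 CPM in females against 193 ± 77.5 and 281 ± 29.7 in males. Maea, an attachment protein of macrophage and erythroblast, was at 125 ± 7.72 and 122 ± 9.41 CPM. Palld, Cd47 and Sirpa had the smallest p of the list (edgeR adjusted p = 0.506 each). Among 14 tested genes of the 17 in the efferocytosis list 0 were called, with Itgb3 (edgeR adjusted p = 0.399), Stab1 and Cd36 (0.506 each) lowest. Itgb3 is also a marker gene of megakaryocytes, and which cells its level came from was not tested. Of the 10 genes in the Csf1 axis list 0 were called, Csf1 itself having 15.2 ± 4.44 CPM in females against 16.4 ± 4.63 in males, and Csf3r, Zeb2 and Nr4a1 had the smallest p (0.509, 0.531 and 0.545).

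Several of these genes are also made by other marrow cells, and markers of some of those cells moved with them. Each of the 10 genes was set against the mean log2 CPM of 7 cell type lists, 70 relations in all. A permutation p adjusted over the 70 was under 0.05 for 19 by Pearson r and for 7 by Spearman rho (5 with macrophage identity and 2 with monocytes). The 19 were 8 with macrophage identity, 7 with the monocyte list, 3 with the eosinophil list (C1qb, C1qc and Vcam1) and 1 with the mature neutrophil list (Adgre1). Adgre1 and the monocyte list had r = 0.95 and rho = 0.782 (permutation p = 0.00024 and 0.0104, adjusted 0.0056 and 0.0806), and r = 0.85 without the 2 farthest libraries. C1qa and the macrophage identity list had r = 0.904 and rho = 0.891 (permutation p = 0.00015 and 0.00106, adjusted 0.00525 and 0.0362), and r = 0.809 without the 2 farthest libraries. Without male replicate 1, 0 of the 70 relations passed, although r stayed at 0.888 for Adgre1 with monocytes and at 0.865 for C1qa with macrophage identity (permutation adjusted p = 0.116 each). The relations named here were picked after all 70 had been seen.

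Male replicate 1, the library with the highest C1q, also held the most of these other markers. The summed monocyte list was at 3366 CPM there, of which Lyz2 made up 1501 CPM, and between 836 and 1368 CPM in the other 9 libraries. The summed mature neutrophil list was at 9356 CPM there and between 228 and 2888 in the others, and the summed eosinophil list at 2242 CPM and between 322 and 1389. The neutrophil sum was not high in that library alone. It was at 2888, 1464 and 1462 CPM in male replicates 2 to 4, against 284 to 1052 in females and 228 in male replicate 5. All 12 neutrophil genes had a lower fitted level in females (median log2 fold change -2.43), and 0 were called. None of the defining genes of these lists was at 0 (Ly6c2 132 ± 31.4 CPM in females and 212 ± 126 in males, Ly6g 1.57 ± 1.06 and 13.1 ± 16.4, Epx 183 ± 89.3 and 178 ± 102). The part of these cells in the levels of the 10 genes was not tested. The summed dendritic list was highest there too, at 231 CPM against 142 to 188 in the others, and the summed B-lineage list at 52 against 13.4 to 32.5. The summed erythroid list was at 51198 CPM in male replicate 1 and between 14872 and 31607 in the other males. In females it was between 7890 and 12862 CPM, so the sexes did not overlap, although 0 of its genes were called. No gene of the group passed with the erythroid list (r between -0.439 and 0.372). Without male replicate 1, r with the erythroid list was negative for all 10 genes, from -0.696 to -0.188. With the endothelium list 0 relations passed, the lowest adjusted p being 0.0515 (Cd163, r = 0.728).

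With the mean of the stroma list 0 relations passed as well (lowest permutation adjusted p 0.732), but some of its genes went in opposite directions. The collagen genes of bone-forming cells, Col1a1 and Col1a2, had r = -0.736 each to the C1q mean, and Bglap, osteocalcin, -0.622. Some genes of the perivascular niche went the other way, with r = 0.822 for the chemokine Cxcl12, 0.774 for Kitl, the Kit ligand, 0.746 for Adipoq and 0.598 for Lepr. Without male replicate 1 these were 0.752, 0.722, 0.757 and 0.527. Of the rest of the list, Pdgfrb had r = 0.168 and Col3a1 0.373 (-0.01 and 0.238 without male replicate 1). Pdgfra and Sp7 were not ranked. Cxcl12 was at 45.5, 43.8, 53.6, 134 and 56.3 CPM in female replicates 1 to 5 and at 114, 62.2, 34.4, 28.3 and 23 CPM in male replicates 1 to 5. Female replicate 4 and male replicate 1 were highest and male replicate 5 lowest, and the sexes overlapped. Col1a1 was highest in male replicate 5 (1612 CPM) and lowest in female replicate 4 (82 CPM). The genes contrasted here were singled out after their values were seen, and the part of stromal cells in the levels of Vcam1 and the other genes was not tested.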

How the data were processed

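Bone marrow RNA of 10 mice was sequenced, 1 library per mouse, so n counts animals. The authors deposited raw read counts per gene and a table of normalized values (signal), which equalled the counts divided by 1 size factor per library (0.852 to 1.13). STAR, featureCounts and DESeq are the tools in the submitters' processing notes, beside the builds GRCm38.p6 and mm10. The sources used here do not give their versions, the annotation or the strand setting, so reads of overlapping antisense genes cannot be told apart.

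From the deposited counts, genes were filtered with filterByExpr of edgeR 4.0.16 (R 4.3.3), which kept 14674 of 25178 and all 10 genes described, scaled by TMM and fitted with the robust quasi-likelihood test, sex being the only term. P-values were adjusted over all genes tested (Benjamini-Hochberg). CPM is the count scaled to the TMM-adjusted library size, and correlations use log2 CPM with a prior count of 2. Correlation p-values are two-sided permutation p-values (100000 resamples, complete enumeration below 10 libraries), adjusted within each family. Exon lengths and coordinates come from GENCODE vM21, which held 25116 of the genes. Counting errors leave out PCR duplication. The count fit was tested on simulated data. Those data varied less between libraries than the genes described, Cd163 apart, so they do not show the power of the test for these genes.

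The genes, lists and named genes were chosen with earlier results of these data known. The genes named are the 10 members, from each pathway list the 3 of smallest p and some fixed by name, the 10 most like C1q, and defining genes of each cell type. A gene that this rule takes is not reported here. Others were chosen after their values were seen. Alternatives tried were DESeq2 1.42.0 (its size factors and its Wald test), other filters, another prior count, the deposited normalized values, a replicate block, leaving out each library, and leaving out male replicates 1 and 2.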

Additional observations from a re-analysis of the deposited data

Results flagged for a closer look

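Within the 5 males, 1 library lay far from the other 4 in 6 of the 36 combinations of sex with a gene of the group, Hmox1 or a cell type list that were examined (gap to the nearest library divided by the range above Dixon's 95% value of 0.71). For a single combination with normally distributed values chance gives about 1 such case in 20. The 36 share the same mice and many of them move together, so the number flagged was not set against chance. In 5 of the 6 the library was male replicate 1. It had 14.8 CPM of Adgre1 (next highest male 4.88), 36.3 CPM of Vcam1 (9.65), 9.86 CPM of Cd5l (2.18) and 7.72 CPM of Mrc1 (2.81). Its summed monocyte list was at 3366 CPM (1368). Lyz2 alone made up 1501 CPM of it (next highest male 428). Ly86 was the only gene of the list not highest there, at 32.3 CPM against 32.4 in male replicate 2. The sixth was male replicate 5, whose summed stroma list was at 2793 CPM (870). Of that sum Col1a1 made up 1612 CPM and Col1a2 1098 CPM, while Cxcl12 (23 CPM), Kitl (0.61) and Adipoq (0.328) were at their lowest there.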

How the results depend on the processing

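None of the 10 genes was called between the sexes under any alternative run. Over all genes 8 were called, 53 with the DESeq2 Wald test, 5 with the replicate block and 6 to 10 when single libraries were left out. Replicate numbers gave no sign of pairing the mice. Deviations from the sex means correlated between -0.302 and -0.0071 for same-numbered libraries, and no female library matched the male of its own number best. With 5 numbers this check cannot tell whether same-numbered mice shared a batch. With the block Vcam1 turned to 0.26, and no other gene of the group changed direction. Of 159 alternative log2 fold changes 23 over 8 genes changed direction. Leaving out single libraries gave -0.86 to 0.01 for Adgre1, -0.72 to 0.19 for C1qa, -0.61 to 0.38 for C1qb, -0.71 to 0.53 for C1qc, -0.82 to 0.64 for Cd5l, -0.62 to 0.29 for Spic, -0.40 to 0.71 for Vcam1 and -0.21 to 0.63 for Mrc1, with 0.49 to 1.47 for Siglec1 and 0.16 to 0.33 for Cd163, which did not turn. Except for Cd163, the upper end was the fit without male replicate 1 each time. Without male replicates 1 and 2 the values were 0.14 for Adgre1, 0.39 for C1qa, 1 for C1qb, 0.90 for C1qc, 0.69 for Cd5l, 0.42 for Spic and 0.72 for Vcam1. The number of pairs that passed was 31 and stayed between 27 and 36 when single libraries were left out. The number of relations with cell type lists was 19, ran from 0 to 24 when single libraries were left out and was 0 without male replicates 1 and 2. The cause of these changes was not tested. Spic has no value under the filter of 1 CPM in 5 libraries. Depth limits Spic and Siglec1 most, whose lowest libraries hold 5 and 3 counts.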

Other observations

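Among the 13081 genes with a mean of at least 1 CPM, those most like Cd163 over the 10 libraries were Synj2 (r = 0.915), Zfp715 (0.906) and Arhgap17 (0.90), none of which was called between the sexes. All 3 were lowest in male replicate 2, at 3.53, 9.35 and 25 CPM, as was Cd163 at 7.74 CPM. These genes were looked for after the low correlation of Cd163 with C1q had been seen, and the part of the length trend of male replicate 2 in their likeness was not tested.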
